A study of Rattus norvegicus with 6 samples.

Results

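The MYC-MAX-MXD network was read in a rat pituitary tumour cell line through 10 genes, which were chosen by name as the network's members: Mycn, Myc, Mycl, Max, Mxd1, Mxd3, Mxd4, Mxi1, Mnt and Mlx. Every probe set annotated to exactly 1 of these symbols was used, which gave 13 probe sets among the 31042 non-control probe sets of the array. Max, Mxi1 and Mlx had 2 probe sets each and the other 7 genes had 1. Mycn led the choice because its difference between the groups was already known, so its values are a description with no test.

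The cells were GH4C1, a somatolactotroph line that makes growth hormone and prolactin, which was infected with lentiviral vectors (multiplicity of infection 5) and grown for 4 days. In 3 cultures the vector expressed POU1F1(R271W), a mutant described in the title as dominant negative, together with an EGFP reporter from a PGK promoter. POU1F1 itself drives growth hormone and prolactin transcription in the pituitary. The other 3 cultures were controls, for which the design text names a PGK vector with EGFP alone. Both groups keep their own Pou1f1 gene, and the share of cells transduced in each culture is not given in the sources used here.

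MYC proteins are basic helix-loop-helix leucine zipper factors that cannot bind DNA well alone. They pair with MAX, and the pair binds E-boxes, of which CACGTG is the classical form, and activates genes for ribosome assembly, nucleotide synthesis and growth. MXD proteins (MXD1, MXI1, MXD3 and MXD4) and MNT pair with the same MAX, bind the same sites and recruit SIN3 corepressors, so activators and antagonists compete for one partner. MLX is an alternative partner of some antagonists and of the glucose-sensing Mondo factors. MYCN is the family member best known from neural and neuroendocrine tumours.

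Each culture was measured on 1 Affymetrix rat array, and the values are MAS5 signals on a linear scale. Signals were converted to log2 and every probe set was fitted with limma, with Benjamini-Hochberg adjustment over 18625 tested probe sets and a threshold of 0.05. The line's defining genes were bright: Gh1 averaged 6338 ± 867 in R271W cells and 6443 ± 348 in control cells, and Prl averaged 3175 ± 171 in R271W and 4332 ± 188 in control (SD, n = 3 each). Prl fell (log2 -0.45, limma adjusted p = 0.00048), while Gh1 did not pass (log2 -0.03, 0.853). Pou1f1 fell on both probe sets (log2 -0.33 and -0.35, adjusted p = 0.00486 and 0.00339). Whether these probe sets also read the vector's POU1F1(R271W) transcript was not tested. Median signals ran from 25.5 to 27.0 on the R271W arrays and from 22.4 to 23.0 on the control arrays, without overlap. Hybridisation spike-in probe sets averaged 9.10 to 9.30 on the log2 scale in R271W and 8.80 to 9.01 in control, and for beta-actin the 3' signal over the 5' signal gave 1.86 to 2.06 in R271W and 1.81 to 1.82 in control. The GAPDH ratio overlapped, at 0.964 to 0.993 in R271W and 0.927 to 1.04 in control. These offsets move with every group difference given here, and their part in the results was not tested. With so few arrays the precision is limited, and a signal is an average over a culture, in which fewer expressing cells and less RNA per cell cannot be told apart.

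Among the members, all 3 activator probe sets and both of Max read lower in R271W cells, as did 2 of 6 antagonist probe sets. By the test, both Max probe sets passed as lower and 1 antagonist probe set as higher, while Myc and Mycl did not pass. All 13 probe sets passed the filter on dim signals. Of the 12 other than Mycn, 2 were called lower (both of Max) and 1 was called higher (Mxi1). Over all probe sets tested, 15.8% were called, 7.22% lower and 8.57% higher. The members were named with earlier results of these data known, so nothing is read from the comparison. The groups did not overlap in 7 member probe sets, 4 below (Mycn among them) and 3 above the controls, against 33.9% of all probe sets tested. With Mycn chosen for its difference, this count is no result about the members. The median log2 fold change was -0.02 over the members and 0.07 over all probe sets tested.

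Mycn had signals of 317, 361 and 301 in R271W cells, against 1039, 936 and 988 in control cells. Every R271W array lay far below every control array, and the spread within each group was small. The group means were 326 ± 30.9 in R271W and 988 ± 51.2 in control (SD, n = 3 each), a log2 fold change of -1.60. It stayed between -1.80 and -1.55 under 17 alternative settings.

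Myc, the most widely studied activator, had signals of 74.1, 54.3 and 102 in R271W cells, against 109, 116 and 106 in control cells. The groups did not overlap, but the highest R271W array came close to the lowest control. The log2 fold change was -0.57 (interval -1.01 to -0.13), which did not pass (limma adjusted p = 0.0751). It passed under quantile normalization (adjusted p = 0.0498), median centring (0.0158), 75th percentile centring (0.0472) and array weights (0.0362), and without R271W replicate 3 (-0.80, 0.0115). Without R271W replicate 2 the value was -0.35 (0.26).

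Mycl, the third activator, was dim, with signals of 11.0, 33.6 and 41.7 in R271W cells and 49.2, 40.8 and 17.9 in control cells. The groups overlapped. Its log2 fold change of -0.41 had an interval from -1.48 to 0.67 (limma adjusted p = 0.644), so a sizeable change in either direction was not detectable at this signal.

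**Figure D1:**
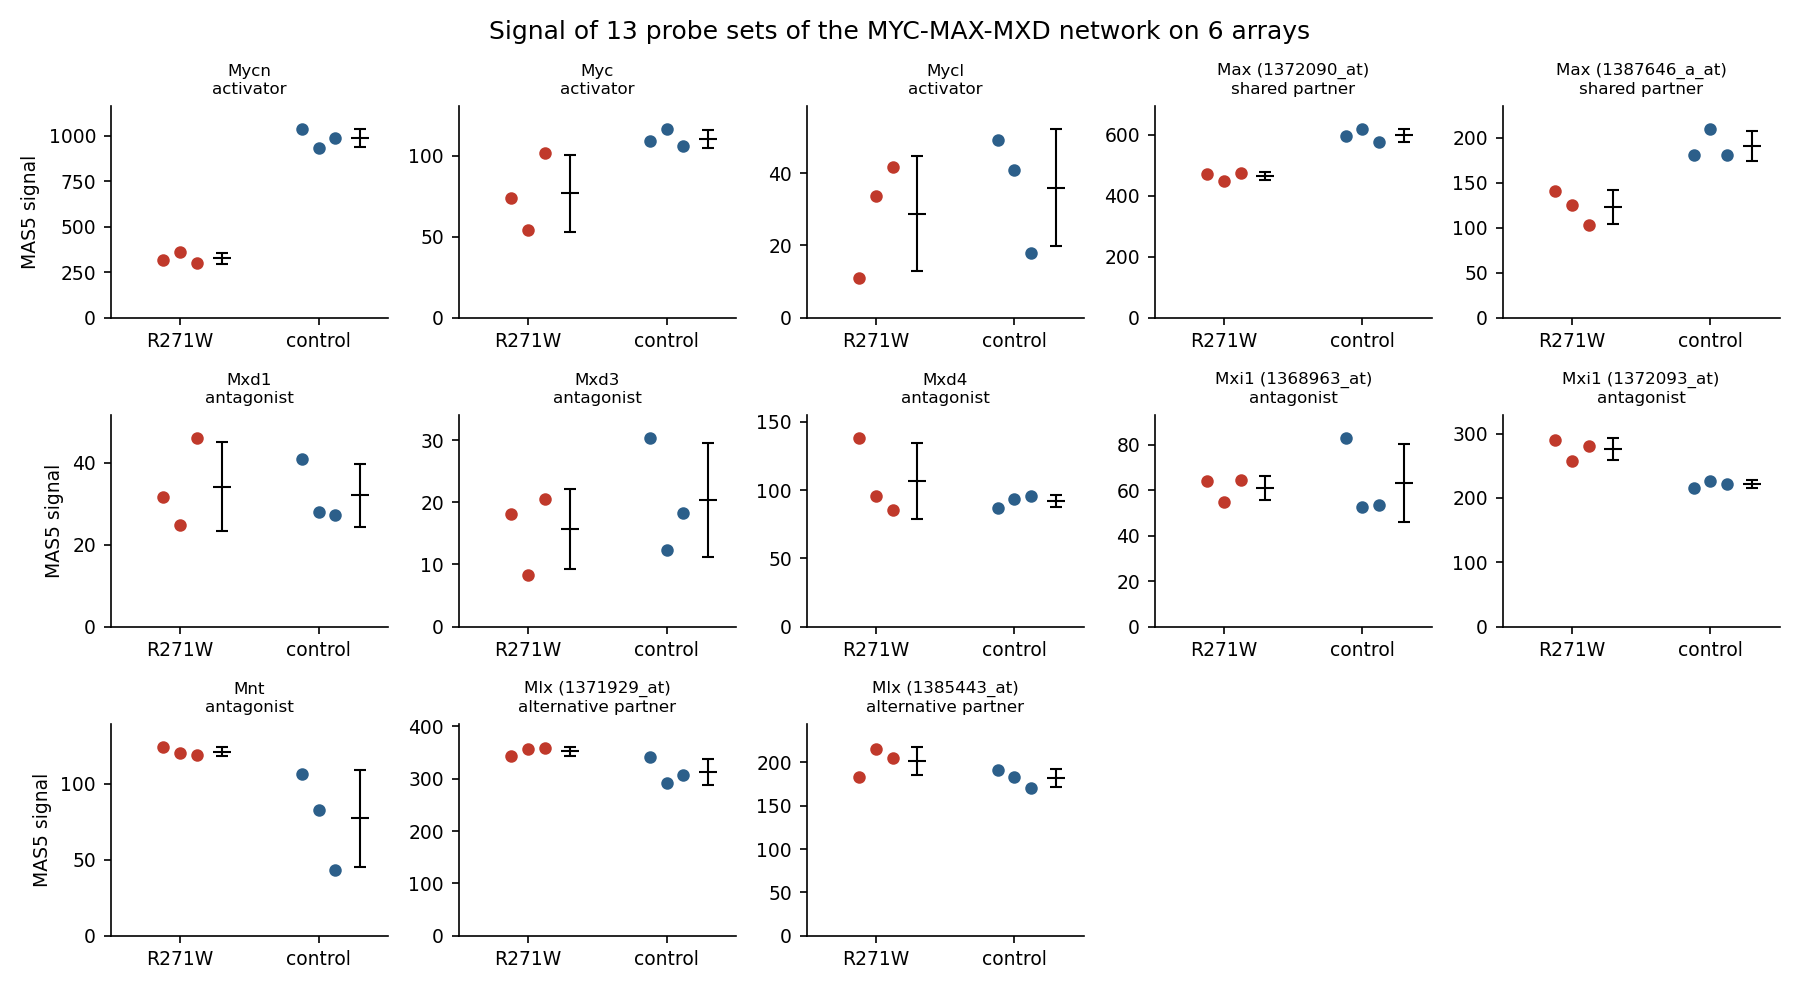
MAS5 signal (vertical axis, linear, starting at 0) of the 13 network probe sets, with 3 R271W and 3 control arrays as points and mean ± SD as bars. Mycn sits between 301 and 361 in R271W and between 936 and 1039 in control, and both Max probe sets are lower on every R271W array.

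Max, the partner that activators and antagonists share, fell in R271W cells on both of its probe sets. The brighter one (1372090_at) had signals of 471, 449 and 474 in R271W cells, against 597, 619 and 577 in control cells. The other (1387646_a_at) had signals of 141, 126 and 103 in R271W cells, against 181, 209.7 and 180.3 in control cells. On neither did the groups overlap. The log2 fold changes were -0.36 (interval -0.53 to -0.19, limma adjusted p = 0.00708) and -0.64 (interval -0.94 to -0.34, adjusted p = 0.00725). Without the intensity trend of eBayes these adjusted p values were 0.0789 and 0.0682, and both calls held when any single array was left out.

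Mxi1, also called MXD2, gave a different reading on its 2 probe sets. The brighter one (1372093_at) rose, with signals of 290.5, 258 and 281 in R271W cells, against 215, 227 and 222 in control cells. All R271W arrays lay above all controls, and the log2 fold change was 0.32 (interval 0.10 to 0.54, limma adjusted p = 0.0444). The dimmer one (1368963_at) had signals of 63.9, 54.9 and 64.4 in R271W cells and 83.0, 52.8 and 53.4 in control cells, a log2 fold change of -0.02 (adjusted p = 0.97). The call on the brighter probe set ended under 12 of 17 settings, which include median centring (0.12, adjusted p = 0.458), a replicate block (0.0826), quantile normalization (0.0654) and leaving out any single array (adjusted p = 0.0569 to 0.121).

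Mnt, an antagonist that is expressed in most cells, had signals of 124, 119.9 and 119 in R271W cells, against 106, 82.7 and 43.0 in control cells. All R271W arrays lay above all controls, and the controls scattered widely. The log2 fold change of 0.74 (interval 0.19 to 1.29) did not pass (limma adjusted p = 0.0654). Without control replicate 3, the lowest array, it was 0.37 (adjusted p = 0.193), and without control replicate 1 it was 1.02 (0.0175). It also passed with a stricter filter (0.0406) and with a replicate block (0.045).

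The remaining antagonists, Mxd1, Mxd3 and Mxd4, had overlapping groups. Mxd4 had signals of 138, 96.0 and 85.5 in R271W cells and 87.1, 93.6 and 95.5 in control cells, with 1 R271W array above the rest. Its log2 change was 0.18 (limma adjusted p = 0.557, interval -0.21 to 0.57). Mxd1 averaged 34.2 ± 10.8 in R271W and 32.1 ± 7.66 in control (log2 0.07, interval -0.62 to 0.76, adjusted p = 0.912). Mxd3 averaged 15.7 ± 6.45 in R271W and 20.3 ± 9.17 in control (log2 -0.38, interval -1.52 to 0.76, adjusted p = 0.686). The wide intervals of Mxd1 and Mxd3 leave room for changes as large as that of Max.

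Mlx, the alternative partner, read slightly higher on both probe sets without passing. The brighter one (1371929_at) had signals of 343, 356 and 358 in R271W cells and 341, 292 and 308 in control cells, a log2 fold change of 0.17 (interval -0.03 to 0.37, limma adjusted p = 0.252). The other (1385443_at) gave 0.15 (interval -0.10 to 0.39, adjusted p = 0.427). Both values were slightly below 0 (-0.03 and -0.05) under median centring, which moves all log2 changes by about -0.20.

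**Figure D2:**
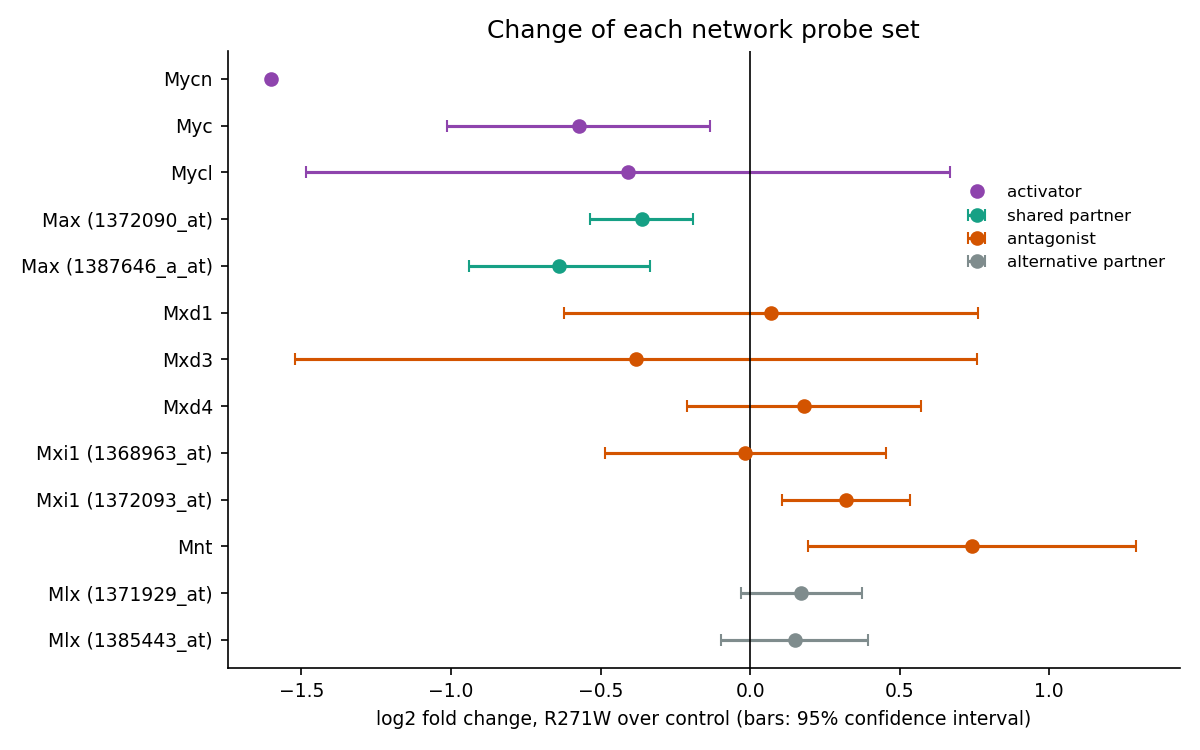
Log2 fold change of R271W over control (horizontal axis) for each network probe set, coloured by role, with 95% confidence intervals from limma for all but Mycn, which was not tested. Mycn (-1.60) and both Max probe sets (-0.36 and -0.64) lie below 0, and the antagonists run from -0.38 (Mxd3) to 0.74 (Mnt).

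Set side by side, the 3 activator probe sets had log2 fold changes of -1.60 to -0.41, all below 0, and the 6 antagonist probe sets ran from -0.38 to 0.74, with 4 above 0 and 2 below. The medians were -0.57 for activators and 0.13 for antagonists. No test was made over these groups. Mycn, chosen for its difference, is 1 of the 3 activator probe sets, so these ranges and medians are descriptions and no result about activators against antagonists. A ratio taken within an array does not depend on how that array was scaled, so each member was also set against Mycn on the same array. The log2 ratio of Mnt to Mycn was -1.35, -1.59 and -1.34 on the R271W arrays, against -3.29, -3.50 and -4.52 on the control arrays. For the brighter Mxi1 probe set the ratio was -0.13, -0.48 and -0.10 in R271W, against -2.27, -2.04 and -2.16 in control, a shift of 1.92. For the brighter Max probe set the shift was smaller, 1.24. In 10 of the 12 ratios the R271W arrays all exceeded the controls, and the exceptions were the dim Mycl and Mxd3. These ratios carry the difference of Mycn itself, and they show unequal change between 2 probe sets, not which of them changed. Mycn was chosen for its difference, so the count of 10 is no result about the other members.

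The promoters of the members were searched for the E-box CACGTG, which reads the same on both strands, because network factors are known to bind this site. Promoter windows from RefSeq (build GRCr8), 250 before and 50 after the annotated start, were matched for 8 of the 10 members, and Mycn and Myc had none in the table. The motif was present in 4 of these 8 windows, those of Max, Mnt, Mlx and Mxd4, and in 6.42% of all 33469 windows. The windows of Mycl, Mxd1, Mxd3 and Mxi1 did not hold these letters. The sequences with a match are given as they read before the start, 5′ to 3′ on the gene's strand, with the motif in capitals.
Max (chr6:101395291-101395540, minus strand): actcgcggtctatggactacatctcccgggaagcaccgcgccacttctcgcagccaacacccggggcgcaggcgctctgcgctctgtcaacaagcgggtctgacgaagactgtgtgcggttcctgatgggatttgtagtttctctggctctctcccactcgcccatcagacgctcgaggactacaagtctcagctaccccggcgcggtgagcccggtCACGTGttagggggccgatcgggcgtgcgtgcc
Mnt (chr10:60197806-60197871, plus strand): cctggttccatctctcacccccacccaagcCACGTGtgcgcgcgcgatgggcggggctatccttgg
Mlx (chr10:86519786-86519851, plus strand): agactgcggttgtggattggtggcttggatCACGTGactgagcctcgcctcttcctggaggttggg
Mxd4 (chr14:80786554-80786619, plus strand): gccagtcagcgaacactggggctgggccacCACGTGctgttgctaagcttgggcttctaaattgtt

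The motif began 33 bases before the annotated start in Max, 70 in Mlx, 123 in Mnt and 197 in Mxd4. Of the 4 genes with a match, Max fell and the others did not pass the test. The letters TATNCAT, a core of POU1F1 binding sites, were also searched on both strands. They were in none of the 8 member windows and in 9.88% of all windows, and the Prl window held 1 match, 24 bases before the start. A match or its absence describes these letters in this window and says nothing of binding.

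Genes that MYC or MYCN are known to activate were lower in R271W cells far more often than higher. Of 78 listed genes, 67 had a probe set with a single symbol and 64 passed the filter. Among these 64, 37 fell and 1 rose, against 8.98% lower and 9.87% higher of 10143 genes tested. Their median log2 fold change was -0.35, against 0.06 over all genes. In all 37 genes called lower the groups did not overlap. A call on the same arrays makes this likely, so it is no further evidence. Over all probe sets tested the groups did not overlap in 33.9%. The changes ran from -0.23 to -1.44, with 2 genes (Dkc1 and Hk2) at least 2-fold lower. Another 11 tested probe sets belonged to 9 of these genes, and all 11 read below 0, with 8 called lower. The list was drawn up with earlier results of these data known, so its count describes the genes and is no independent evidence.

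Among activated genes of the nucleolus and ribosome assembly, 15 of 22 fell and 1 rose, with a median log2 fold change of -0.44. Gnl3, which encodes the nucleolar GTPase nucleostemin, averaged 947 ± 13.8 in R271W cells and 1748 ± 89.2 in control cells (log2 -0.88, limma adjusted p = 3.8e-06). Nop56, a core protein of box C/D small nucleolar RNPs, averaged 1162 ± 115 in R271W and 2045 ± 167 in control (log2 -0.82). Dkc1, which encodes the pseudouridine synthase dyskerin, averaged 238 ± 57.5 in R271W and 509.7 ± 6.52 in control (log2 -1.13). Nop16 (log2 -0.55) and Bop1 (log2 -0.71), both of large subunit assembly, also fell. Exosc5, a subunit of the RNA exosome, was the member that rose, with 135 ± 17.5 in R271W and 74.0 ± 10.7 in control (log2 0.86, adjusted p = 0.00314). Ncl, which encodes nucleolin, had a log2 fold change of -0.19 that did not pass (adjusted p = 0.112).

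Among activated genes of metabolism and uptake, 13 of 19 fell and 0 rose by limma, and 0 read higher at an unadjusted p under 0.05. Tfrc, the transferrin receptor, averaged 1114 ± 95.8 in R271W cells and 2089 ± 50.1 in control cells (log2 -0.91, limma adjusted p = 5.56e-06). Srm, which encodes spermidine synthase, averaged 435 ± 39.0 in R271W and 796 ± 34.3 in control (log2 -0.88), and Cad, the enzyme that starts pyrimidine synthesis, 345 ± 21.8 in R271W and 612 ± 20.5 in control (log2 -0.83). Mthfd1 of folate metabolism (log2 -0.77) and Umps of pyrimidine synthesis (log2 -0.72) fell as well. Odc1, the classical MYC target that encodes ornithine decarboxylase, had signals of 2108, 2065 and 2076 in R271W cells, against 2639, 2684 and 2688 in control cells. That is a smaller change (log2 -0.36, adjusted p = 0.00134) without overlap. The glycolytic gene Ldha had a log2 fold change of -0.16 that did not pass (adjusted p = 0.148).

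In the third class, activated genes of the cell cycle, translation and protein folding, 9 of 23 fell and 0 rose by limma, and 2 read higher at an unadjusted p under 0.05. Its median log2 fold change was -0.20. Pa2g4, a growth-linked RNA-binding protein gene, averaged 357 ± 45.6 in R271W and 628 ± 131 in control (log2 -0.80, limma adjusted p = 0.00113). Eif4a1, an initiation factor helicase (log2 -0.39), Hspe1, a mitochondrial chaperonin (log2 -0.34), and Apex1, a DNA repair endonuclease (log2 -0.36), also fell. Mcm6, a replicative helicase subunit, fell too (log2 -0.45), a call that ended under 5 of 18 settings, quantile normalization among them. The other listed Mcm genes differed in direction. Mcm4 fell (log2 -0.32, limma adjusted p = 0.0444), a call that ended under 8 of 18 settings. The 2 genes that read higher were Mcm3 (log2 0.46, adjusted p = 0.0597) and Mcm2 (0.22, 0.155). Mcm5 and Mcm7 read 0.05 and 0.08 (0.858 and 0.531). The count of 9 was 0 without the intensity trend, 5 with a replicate block, and 4 without R271W replicate 2 or without any single control array.

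**Figure D3:**
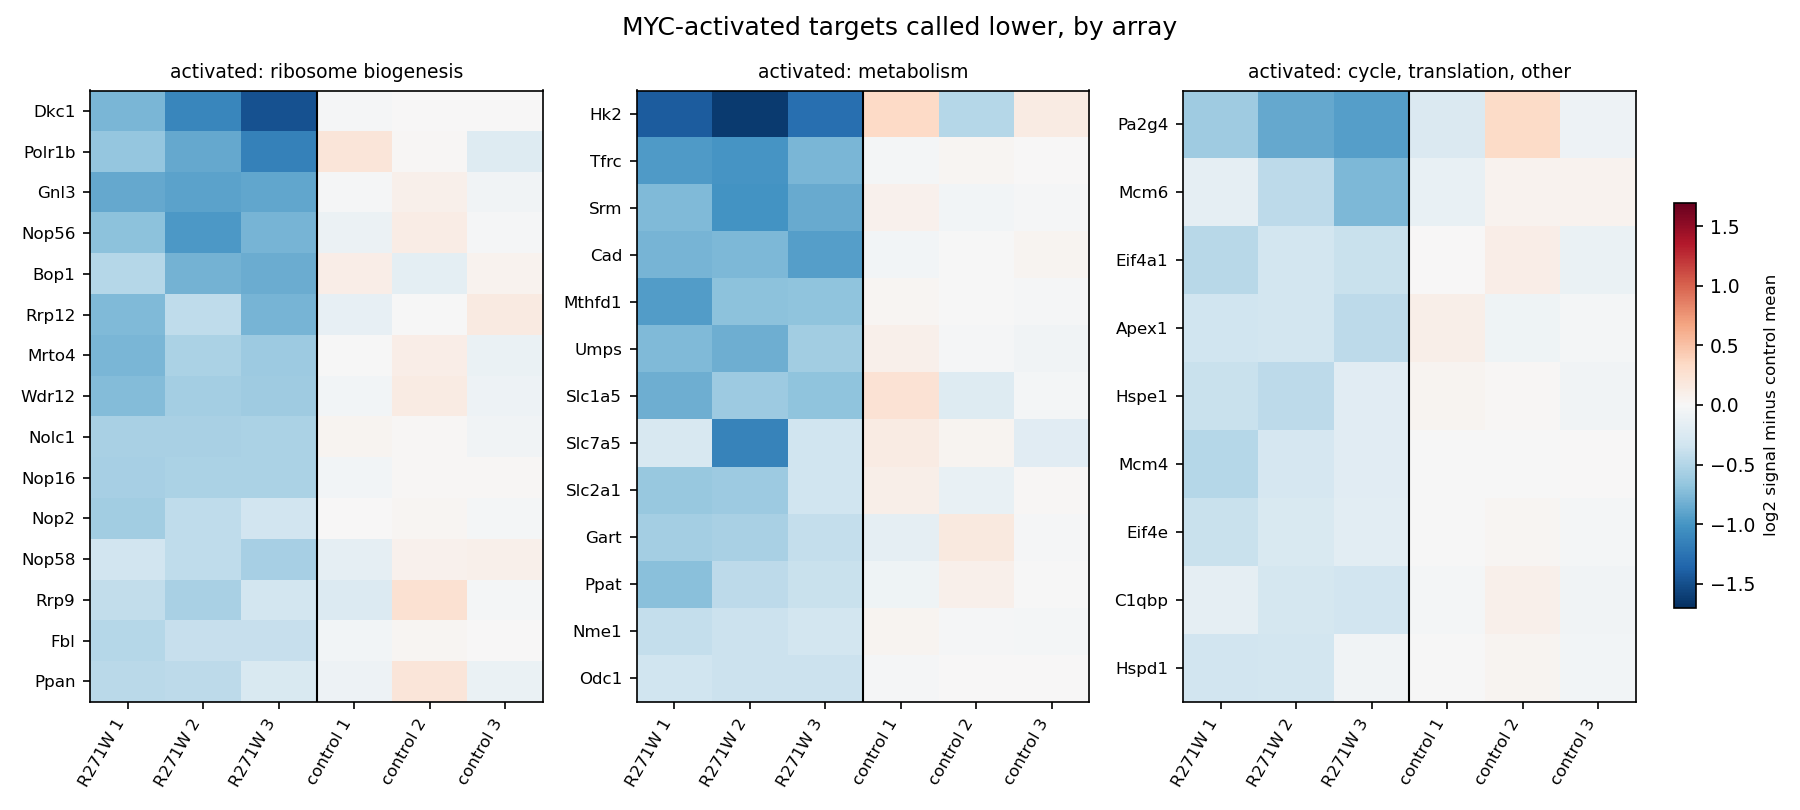
Log2 signal minus the control mean (colour scale) on the 3 R271W and 3 control arrays for the 37 MYC-activated genes called lower, in 3 functional classes ordered by size. The genes were selected for being lower, so the colours show size and spread between arrays, and Hk2 (-1.44) and Dkc1 (-1.13) have the largest changes.

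E-box letters were more frequent in the windows of these activated genes, at 18 of 67 (26.9%), than among all genes with a window (7.08%). That background also counts genes that were not tested here. Among tested genes with a window, 884 held the motif and 7617 did not. Among the genes named above, Gnl3, Dkc1, Srm and Apex1, which fell, and Exosc5, which rose, held CACGTG before the start. Their sequences are shown, with the motif in capitals, because genes called in both directions carry it.
Gnl3 (chr16:6219783-6219837, minus strand): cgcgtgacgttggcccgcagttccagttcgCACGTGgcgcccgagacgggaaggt
Dkc1 (chrX:157751437-157751502, plus strand): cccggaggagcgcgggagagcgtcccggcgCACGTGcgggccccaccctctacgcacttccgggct
Srm (chr5:164308799-164308864, plus strand): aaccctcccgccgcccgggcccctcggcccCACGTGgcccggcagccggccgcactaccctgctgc
Apex1 (chr15:26618140-26618225, plus strand): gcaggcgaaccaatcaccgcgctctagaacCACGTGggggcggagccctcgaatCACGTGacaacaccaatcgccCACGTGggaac
Exosc5 (chr1:90295835-90295900, plus strand): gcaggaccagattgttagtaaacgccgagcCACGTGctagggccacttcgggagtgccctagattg

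Apex1 held the motif 3 times within its last 56 bases before the start. The motif did not separate the activated genes that fell from those that did not: 10 of 18 tested genes with CACGTG fell and 1 rose (median log2 fold change -0.30), and 22 of 38 without it fell and 0 rose (median -0.36). Over all tested genes with a window, 13.6% of 884 genes with the motif were called lower and 7.58% higher, against 8.48% lower and 10.3% higher of 7617 without it. The median GC content of the windows was 62.3% with the motif and 61.3% without. These shares are descriptions, since genes are not replicates.

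Of genes that MYC or MYCN are known to repress, few could be tested. Of 16 listed genes 14 were measured, 5 lay below the filter, and among the 9 tested 1 rose and 0 fell by limma, with 2 higher and 1 lower at an unadjusted p under 0.05. That is 11.1% higher, near the 9.87% of all genes, and is no result about the list. The gene that rose was Ndrg1, named for its repression by N-MYC, with 678 ± 49.5 in R271W cells and 558 ± 49.2 in control cells (log2 0.28, limma adjusted p = 0.0481). This call ended under 11 of 18 settings, among them both centrings and a replicate block. Cdkn1a, the cell cycle inhibitor p21, read 0.20 (adjusted p = 0.592), and Gadd45a 0.06 (0.755).

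**Figure D4:**
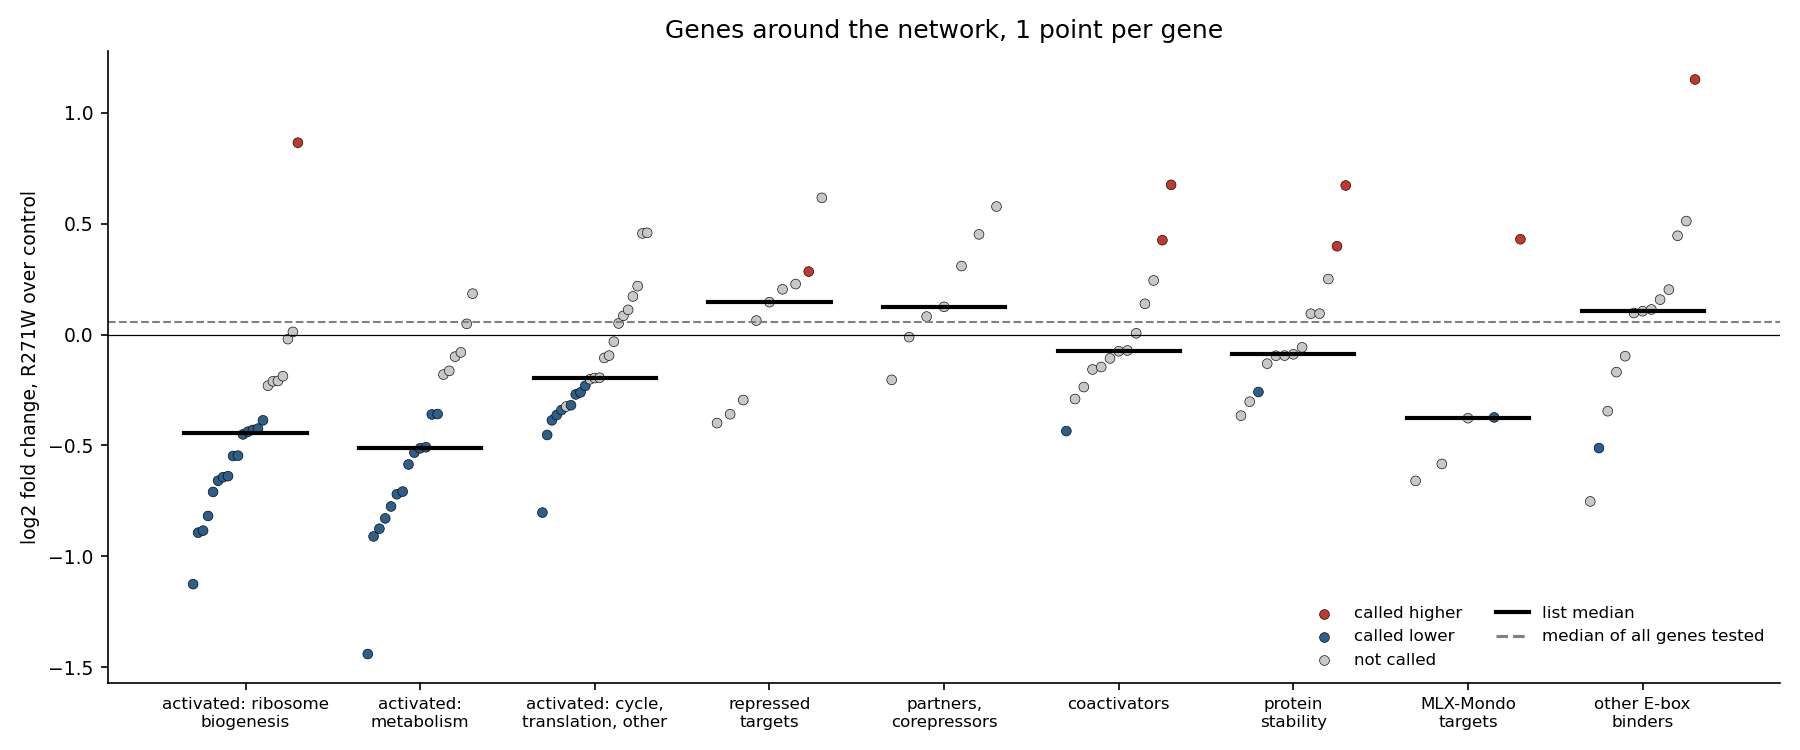
Log2 fold change of R271W over control (vertical axis) for every tested gene in 9 lists around the network, 1 point per gene, with the list median as a bar and the median of all genes (0.06) as a dashed line. The 3 activated classes have medians of -0.44, -0.51 and -0.20, and the other lists are centred nearer 0 except the 5 tested MLX-Mondo targets (-0.38).

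In the other 5 lists around the network, 6 of 51 tested genes rose (11.8%) and 4 fell (7.84%), near the 9.87% and 8.98% of all genes, so these counts are no result about the lists. None of the 7 tested partners and corepressors (Mga, Mlxip, Sin3a, Sin3b, Hdac1, Hdac2 and Ncor1) was called by limma on its brightest probe set, with 2 higher and 1 lower at an unadjusted p under 0.05. A dimmer probe set of the corepressor Ncor1 read 0.65 (adjusted p = 0.0478), with overlapping groups. Among 13 coactivators 2 rose (15.4%) and 1 fell (7.69%). Ep300, a histone acetyltransferase, averaged 786 ± 95.4 in R271W cells and 491 ± 42.7 in control cells (log2 0.67, limma adjusted p = 0.000558), and Smarcb1, a chromatin remodelling subunit, rose by 0.43 on the log2 scale (adjusted p = 0.0176), a call that ended under 5 of 18 settings, median centring among them. Ruvbl1, an ATPase that binds MYC, averaged 440 ± 40.5 in R271W and 594 ± 44.4 in control (log2 -0.44, adjusted p = 0.00652).

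Among 13 genes acting on MYC or MYCN protein stability 2 rose (15.4%) and 1 fell (7.69%). Usp28, a deubiquitinase that stabilises MYC, rose by 0.67 on the log2 scale (limma adjusted p = 0.0336). Aurka, a kinase that protects N-MYC, rose by 0.40 (adjusted p = 0.0419), and Stub1, a ubiquitin ligase, fell by 0.26 (0.0277). These calls ended under 10, 11 and 8 of 18 settings in that order, all 3 under quantile normalization and a replicate block, and each held in 1 of 6 settings that left out a single array. Fbxw7, the ligase subunit that marks MYC and N-MYC for degradation, read -0.09 (limma adjusted p = 0.819). Usp7 was not called on its brightest probe set (log2 -0.30, limma adjusted p = 0.0534). A dimmer Usp7 probe set was lower (log2 -0.44, adjusted p = 0.0174), and on every Usp7 probe set the R271W arrays lay below the controls. Protein levels were not measured. Of 5 tested targets of MLX and the Mondo factors, Txnip, an arrestin-family inhibitor of glucose uptake, rose (log2 0.43, adjusted p = 0.0421) and Fasn, fatty acid synthase, fell (log2 -0.37, 0.00404). The call on Txnip ended under 10 of 18 settings, among them both centrings, quantile normalization and a replicate block, and that on Fasn under 1. Of 13 other E-box binders Mitf rose (log2 1.15, adjusted p = 0.0108) and Bhlhe41 fell (log2 -0.51, 0.00929), and without R271W replicate 3 Mitf was not called.

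The probe sets whose log2 signals followed Mycn most closely over the 6 arrays were those of Tmx1, Nploc4, Pcsk6, Plekha1 and Ebna1bp2, with Pearson correlations of 0.998 to 0.997. The most opposite were Zfp207 (-0.998), Vav3 (-0.997) and Cd7 (-0.997). With 3 arrays a group, such values mostly restate a difference between the groups with little spread. Pcsk6, a proprotein convertase gene, was nearest to Mycn in size among them, with 82.4 ± 6.08 in R271W cells and 216 ± 10.0 in control cells (log2 -1.39).

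Mycn lies on rat chromosome 6, and the nearest genes with a tested probe set on either side were compared with it. Ddx1, the neighbouring RNA helicase gene that is often co-amplified with MYCN in human neuroblastoma, fell, with 2279, 2149 and 2067 in R271W cells, against 2525, 2759 and 2754 in control cells (log2 -0.31, limma adjusted p = 0.00761). Next to it, Nbas read -0.37 (adjusted p = 0.0826), and Trib2, further out, rose (log2 0.93, 3.7e-05). On the other side Cyria read -0.28 (0.192), Smc6 fell (log2 -0.38, 0.0278) and Rdh14 rose (log2 0.43, 0.0491). The neighbours moved in both directions. None of the 6 differed by as much as Mycn, but Mycn was chosen for its difference, so that comparison is no result about the region.

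Most markers of other cell types were dim. Of 20 measured marker genes of other pituitary cells, endothelium, leukocytes and fibroblasts, 18 stayed under a signal of 60 on every array, and the others, Dcn and Sox2, both fell. Dcn, which encodes the matrix proteoglycan decorin, averaged 1205 ± 37.1 in R271W cells and 2770 ± 90.4 in control cells (log2 -1.20, limma adjusted p = 2.12e-07). Sox2, a stem cell transcription factor, averaged 176 ± 17.0 in R271W and 236 ± 8.91 in control on its brightest probe set (log2 -0.43, adjusted p = 0.0196). The summed signal of the list was 1489 to 1589 in R271W and 3074 to 3293 in control, most of it from Dcn, and its part in the results was not tested. Another 5 fibroblast markers (Col1a1, Col1a2, Col3a1, Lum and Pdgfra) were at or below 16.7 on every array, and Pdgfrb was at or below 19.7. Pdgfra, under the filter and not tested, read 2.56 to 4.88 in R271W and 11.2 to 15.2 in control.

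**Figure D5:**
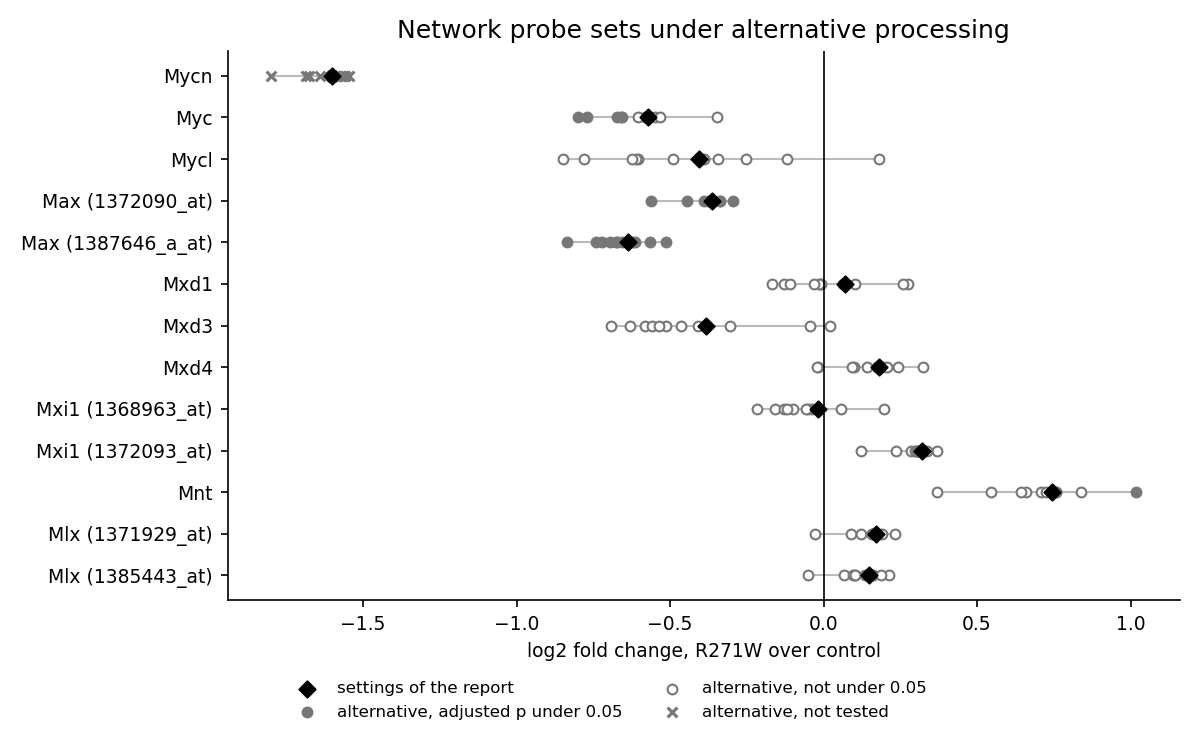
Log2 fold change of R271W over control (horizontal axis) for each network probe set under the settings of the report (diamonds) and 17 alternatives (circles, filled where the adjusted p was under 0.05, crosses for Mycn, which was not tested). Mycn stays between -1.80 and -1.55, the circles of both Max probe sets without the intensity trend lie under their diamonds, and Mxd1 crosses 0.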

How the data were processed

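Biotin-labelled cRNA from 6 cultures was hybridised to Affymetrix rat arrays, 1 per culture (labels' protocols). What the authors deposited are intensity values, linear MAS5 signals of probe sets, per the submitters' processing notes; the software version is not given in the sources used here. Each array, judged by its values, was scaled to a trimmed mean of 100. Groups came from the labels, which call the replicates biological.

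Symbols came from the platform annotation, checked by Entrez ID against a RefSeq gene table (GRCr8); 20826 of 31042 non-control probe sets had 1 symbol, 436 several and 9780 were unnamed. Log2 signals were fitted with limma 3.58.1 in R 4.3.3 (lmFit, eBayes with intensity trend, group as the term, two-sided, Benjamini-Hochberg). Control probe sets were left out, and probe sets at or above the 40th percentile of mean log2 signal (a signal of 11.2) were tested. In gene lists the brightest single-symbol probe set stood for a gene. The fit was tested on simulated data. The RefSeq gene table gave the order of genes beside Mycn, and printed coordinates are those of the RefSeq promoter table (GRCr8).

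The members and lists were chosen with earlier results of these data known. Named were all members, up to 5 called genes with the smallest p per list, defining members not called, the 5 probe sets most and 3 least correlated with Mycn, and its 3 nearest tested genes on each side. Exosc5, Hk2, Odc1, Usp7, Mcm2, Mcm3, Mcm4, Mcm5, Mcm7 and a dimmer Ncor1 probe set were named after their values were seen. The replicate numbers gave no pairing: correlations of same-numbered arrays' deviations were -0.00165, 0.0101 and -0.0201. Alternatives were quantile normalization, median and 75th percentile centring, no filter or the 60th percentile, a replicate block, array weights, eBayes in robust form or lacking the trend, a floor or an added offset at the 20th percentile of signals (3.72), averaging probe sets per gene, and omitting single arrays in turn.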

Additional observations from a re-analysis of the deposited data

How the results depend on the processing

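Over all probe sets, 1596 were called higher and 1344 lower. Median centring, which moves every log2 change by -0.20, gave 730 and 3132, eBayes without the intensity trend gave 634 and 431, and leaving out single arrays gave 1000 to 1346 and 945 to 1327. Among network probe sets, 1 was called higher, the brighter one of Mxi1. The count was 2 with the 60th percentile filter. It was 0 under 75th percentile or median centring, no filter, no intensity trend or quantile normalization (0 to 1 without single arrays). With a replicate block, and without control replicate 1, the 1 called higher was Mnt and not Mxi1. With Mycn counted, 3 were past the threshold on the lower side, 1 without the trend and 3 to 4 without single arrays. Among activated targets, 37 were called lower: 14 without the trend (2.81% of genes lower there), 50 with median centring (20.4%), 33 with a replicate block and 29 to 40 without single arrays. The 1 called higher became 2 with the 60th percentile filter and 1 to 2 without single arrays. Among repressed targets the 1 called higher became 2 with the 60th percentile filter or quantile normalization and 0 under 75th percentile or median centring, array weights, averaging over probe sets, no filter, no trend or the block (0 to 2 without single arrays), and the 0 called lower became 1 under 75th percentile or median centring, averaging over probe sets or quantile normalization. In the other lists the 6 called higher became 3 under 75th percentile centring, no trend, quantile normalization or the block, 2 under median centring and 2 to 5 without single arrays. The 4 called lower became 9 with the 60th percentile filter, 10 and 12 with 75th percentile and median centring, 7 with array weights, 0 without the trend and 3 to 8 without single arrays.

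Members that crossed 0 had not been called. Mxd1 read -0.0128 under 75th percentile centring, -0.00956 with array weights, -0.13 under median centring and -0.11 under quantile normalization. Median centring gave -0.0173 for Mxd4 and -0.0272 and -0.0500 for Mlx. Without single arrays, Mycl ran from -0.85 to 0.18, Mxd1 from -0.17 to 0.28, Mxd3 from -0.69 to 0.0198, Mxd4 from -0.0225 to 0.32 and the dimmer Mxi1 probe set from -0.13 to 0.20. The cause of these changes was not tested. Replicate numbers did not pair the arrays.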
